A study of Mus musculus with 12 samples.

Results

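Chemokine receptors other than Ccr2 were examined as 6 genes, Ccr1, Cx3cr1, Cmklr1, Ccrl2, Cxcr4 and Ccr7, which were taken by name from the 56735 gene names of the count table, and all 6 passed the filter on low counts. The libraries are bulk RNA-seq of sdCAMs, the CD206+ subdural macrophages that line the leptomeninges and the perivascular spaces, which had been sorted by FACS from mouse brain freed of choroid plexus. All mice were Mrc1CreERT2/CreERT2:R26tdT/tdT, so that both Mrc1 alleles carried CreERT2, and all received tamoxifen, which gave cells expressing Mrc1 (the gene of CD206) at that time, and their progeny, the tdTomato reporter (tdT). The label therefore reports Mrc1 expression at tamoxifen and not origin itself, and a cell that escaped recombination is also tdT-. Mice were treated 4 weeks after tamoxifen for 7 days with vehicle or with BLZ945 (200 mg per kg), an inhibitor of the CSF-1 receptor that depletes macrophages, and sdCAMs were collected once 8 further weeks had passed. The 3 groups were tdT+ cells of vehicle mice (vehicle tdT+), tdT+ cells of BLZ945 mice (BLZ945 tdT+) and tdT- cells of BLZ945 mice (tdT-), with 4 libraries each from mice labelled F1, F2, M1 and M2. The tdT+ and tdT- libraries of BLZ945 mice with the same label came from the same mouse, whereas vehicle mice were other animals. Vehicle tdT- cells were not analysed here, so that treatment and label cannot be told apart where tdT- cells are compared with vehicle tdT+ cells.

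Chemokine receptors are G protein-coupled receptors that couple to inhibitory G proteins and steer the migration of leukocytes along gradients of small secreted ligands. CCR1 binds inflammatory CC chemokines such as CCL3, CCL5 and CCL7 and is found on monocytes, macrophages and neutrophils. CX3CR1 binds the membrane-anchored chemokine CX3CL1 made by neurons and endothelium, and in brain it is known above all from microglia. CMKLR1 is the signalling receptor of chemerin, a chemoattractant encoded by Rarres2, and CCRL2 is an atypical receptor that binds chemerin without signalling through G proteins. CXCR4 binds CXCL12 and holds haematopoietic cells in bone marrow, and CCR7 binds CCL19 and CCL21 and guides mature dendritic cells and T cells to lymph nodes.

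The receptors did not move together. In tdT- cells compared with tdT+ cells of the same BLZ945 mice, Cx3cr1 rose 1.82-fold, whereas Ccr1 fell 1.62-fold and Cmklr1 fell 1.59-fold. Ccr7 was read only in 2 of 4 tdT- libraries and in 2 of 4 vehicle libraries, and had 0 counts in all 4 BLZ945 tdT+ libraries. Compared with vehicle tdT+ cells, tdT- cells had more Cx3cr1 (1.52-fold) and more Ccrl2 (2.64-fold). Between the tdT+ cells of BLZ945 and vehicle mice, no receptor other than Ccr7 passed the test. Of all these calls, that of Cx3cr1 between tdT- and BLZ945 tdT+ cells was the only one that edgeR's quasi-likelihood test also made. All values are normalised counts (counts divided by the DESeq2 size factor of the library), and a gene passed the test where its DESeq2 p, adjusted by Benjamini and Hochberg, did not exceed 0.05. A DEG had in addition a log2 fold change, shrunken by apeglm, of 1 or more in either direction.

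**Figure D1:**
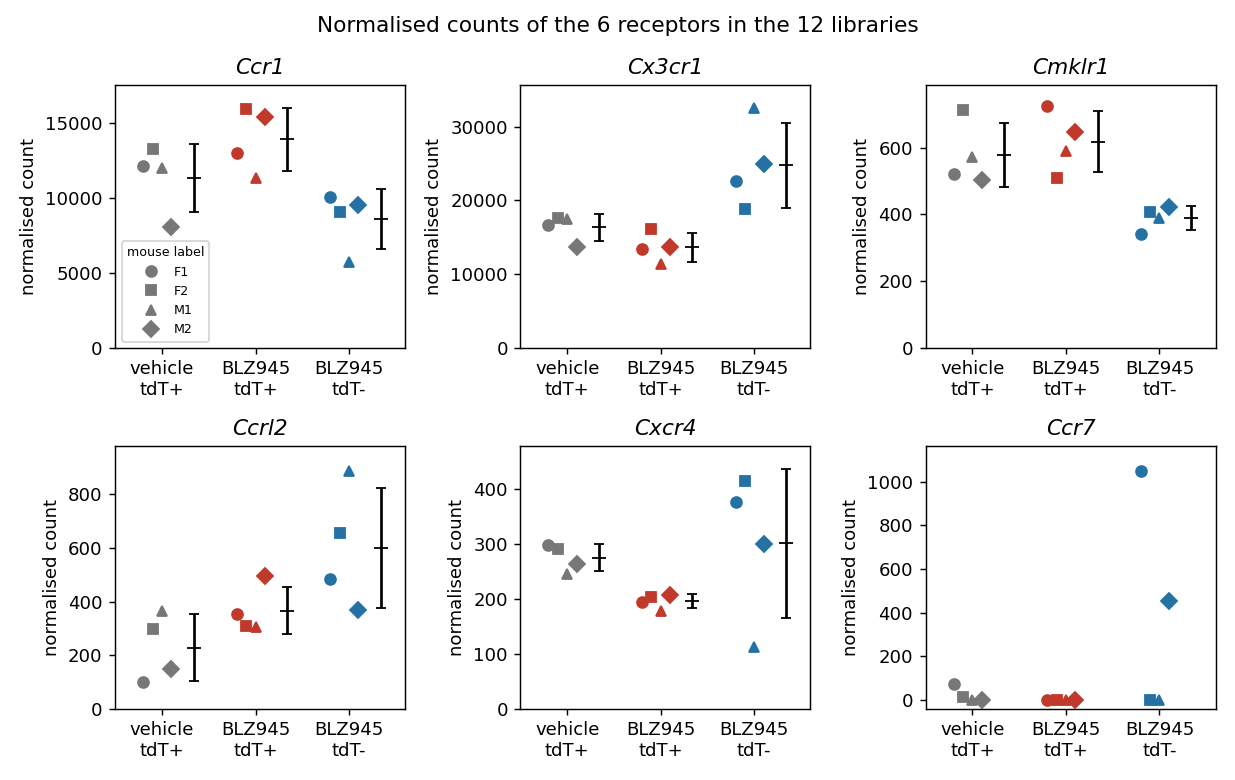
Normalised counts (y axes, starting at 0 or, for Ccr7, just below it) of the 6 receptors in each library, with groups on the x axis, a symbol for each mouse label and, except for Ccr7, the mean with SD as error bar (n = 4). Ccr1 and Cmklr1 of all tdT- libraries lie below all BLZ945 tdT+ libraries and Cx3cr1 above them, and Ccr7 is at 0 in 8 of 12 libraries.

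The libraries held between 19969308 and 23395058 counts, and 3 counts, taken as the floor of detection, were worth 2.597 to 3.16 normalised counts. As a check of the labelled cell type, all 10 sdCAM markers were detected in every group, and 8 of 10 were lower in tdT- than in BLZ945 tdT+ cells (summed level 1148520 to 1396860 against 1594380 to 1797610). Most of this sum was Apoe, with a mean of 676333 in tdT- and 924199 in BLZ945 tdT+ cells. Lyz2, the next largest part, did not pass (335028 against 348906). Csf1r, among the 8 lower markers, did not pass without tdT- F2 (adjusted p = 0.064). Mrc1 itself was detected in all tdT- libraries (2232 to 3882) and was 2.93-fold lower there than in BLZ945 tdT+ cells (adjusted p = 3.6e-13). All 7 microglia markers were higher in tdT- cells in both comparisons. Library F2 of the tdT- group stood apart, with a summed level of 8 neutrophil markers of 423109 against at most 93.9 in the other 11 libraries, and of 7 monocyte markers of 40606 against at most 908. Most of the monocyte sum of this library was Chil3 (32358), beside Ly6c2 (3420) and Plac8 (2957). Calls that depend on this library are given with and without it. In these bulk samples, fewer cells of a type and less RNA per cell cannot be told apart.

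Per kilobase of exon, Ccr1 and Cx3cr1 were far above the other receptors in every group. Ccr1 had 3997 ± 799 normalised counts per kb in vehicle tdT+, 4898 ± 749 in BLZ945 tdT+ and 3027 ± 695 in tdT- cells (mean ± SD, n = 4). The same level for Cx3cr1 was 3628 ± 406, 3025 ± 434 and 5497 ± 1287. Both lay between the 97.7th and the 98.9th percentile of the 13724 genes tested. Next came Cmklr1 (169 ± 28 in vehicle tdT+), Cxcr4 (152 ± 13.4) and Ccrl2 (87.5 ± 48), and these neighbours overlapped within their spread in vehicle cells, while Ccr7 (11 ± 17.9) lay below them. In BLZ945 tdT+ cells Ccrl2 (141 ± 34 per kb) lay above Cxcr4 (108 ± 6.92) without overlap, and below Cmklr1 (181 ± 26.7) with overlap. In tdT- cells the order of the lower receptors by mean was Ccrl2 (231 ± 86.5 per kb), Ccr7 (189 ± 251), Cxcr4 (166 ± 74.6) and Cmklr1 (114 ± 10.4), again with overlapping ranges except between Ccrl2 and Cmklr1. Ccr1 and Cx3cr1 overlapped in vehicle cells, Ccr1 was the higher in each BLZ945 tdT+ library, and Cx3cr1 was the higher in each tdT- library.

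The balance of these 2 main receptors was read as the ratio of Cx3cr1 to Ccr1 per kb within a library, which does not depend on the size factor. It was 0.862, 0.838, 0.920 and 1.07 in vehicle tdT+ libraries F1, F2, M1 and M2. In BLZ945 tdT+ libraries it was 0.647, 0.639, 0.632 and 0.560. In tdT- libraries it was 1.42, 1.30, 3.61 and 1.65. The 3 groups did not overlap in this ratio, which was lowest in BLZ945 tdT+ cells (0.620 ± 0.0403, SD), intermediate in vehicle cells (0.923 ± 0.105) and highest in tdT- cells (2.00 ± 1.08). As a share of the summed per-kb level of the 6 receptors, Ccr1 took 49.4% ± 2.72, 58.6% ± 1.45 and 33.2% ± 8.66 in the same order of vehicle, BLZ945 tdT+ and tdT- cells, and Cx3cr1 took 45.4% ± 2.48, 36.2% ± 1.60 and 59.2% ± 10.3. These ratios and shares were formed after the values were seen and are a description without a test.

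**Figure D2:**
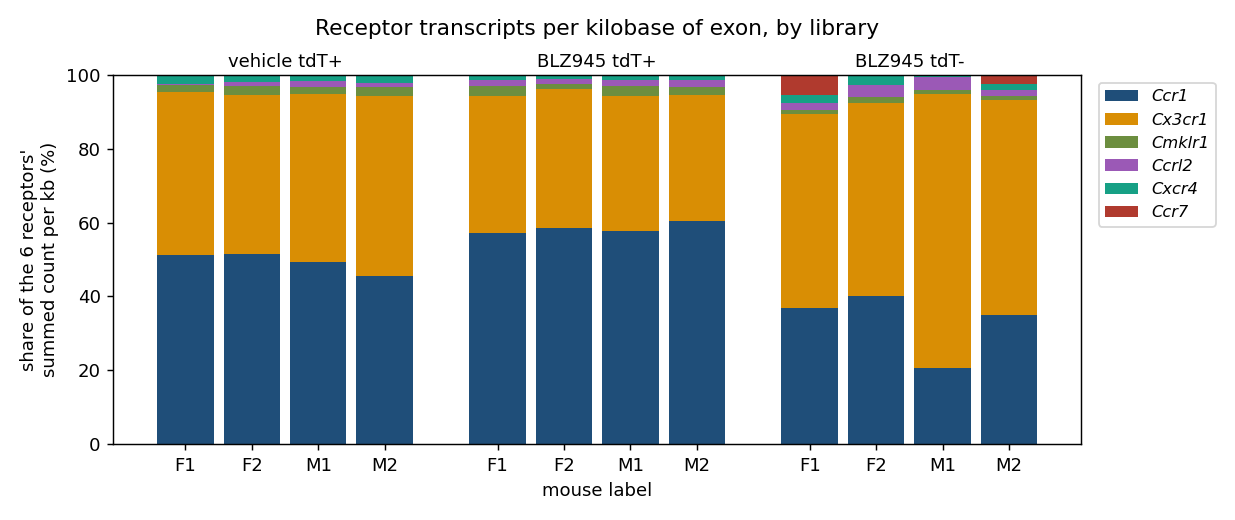
Share of each receptor in the summed normalised count per kb of exon of the 6 receptors (y axis, percent), stacked for each library (x axis, mouse label) in the 3 groups. Ccr1 takes over 57% in each BLZ945 tdT+ library, and Cx3cr1 takes over 52% in each tdT- library.

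Ccr1 (chr9:123762161-123768729, minus strand, GRCm39) was read at 12099.6, 13208, 11954 and 8033 normalised counts in vehicle tdT+ libraries F1, F2, M1 and M2. BLZ945 tdT+ libraries had 12966, 15877, 11318 and 15337, and tdT- libraries had 10051, 9069, 5683 and 9494. Every tdT- library lay below every BLZ945 tdT+ library, and the ratio within a mouse was 0.775, 0.571, 0.502 and 0.619, lower in 4 of 4 mice. The shrunken log2 fold change was -0.61 ± 0.19 (SE), with an adjusted p of 0.0067. The call held with the mouse as a block (adjusted p = 7.2e-06) and without tdT- F2 (0.0097), but edgeR's quasi-likelihood test gave an adjusted p of 0.073. Neither the comparison of tdT- with vehicle cells (-0.32 ± 0.18, adjusted p = 0.24) nor that of BLZ945 tdT+ with vehicle cells (0.11 ± 0.15, adjusted p = 0.85) passed. Their 95% Wald intervals on the unshrunken log2 scale were -0.77 to -0.03 and -0.08 to 0.66. Beside the lower Ccr1, the summed sdCAM markers, a sum mostly of Apoe, were lower in tdT- cells as well, and their part in the result was not tested.

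Cx3cr1 (chr9:119730682-119898945, minus strand, GRCm39) had 16595, 17604, 17491 and 13689 normalised counts in vehicle tdT+ libraries. The BLZ945 tdT+ libraries F1, F2, M1 and M2 had 13339, 16145, 11376 and 13654. The tdT- libraries had 22688, 18811, 32578 and 24973, each above all 8 tdT+ libraries. Within a mouse, tdT- cells had 1.70, 1.17, 2.86 and 1.83 times the level of tdT+ cells, higher in 4 of 4 mice. The shrunken log2 fold change was 0.82 ± 0.16 against BLZ945 tdT+ cells (adjusted p = 2.9e-06) and 0.55 ± 0.16 against vehicle cells (adjusted p = 0.0039). With edgeR, the first difference passed (adjusted p = 0.012) and the second did not (0.081). Between the tdT+ groups the log2 fold change was -0.13 ± 0.14 (adjusted p = 0.8, unshrunken interval -0.57 to 0.05). Exons of the predicted gene Gm33858 overlap Cx3cr1 and reads of shared bases cannot be told apart without strand. Gm33858 itself had a mean of 93.3 normalised counts, and the part of the overlap in the values of Cx3cr1 was not tested.

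Microglia, the brain's own macrophages, are strong expressors of Cx3cr1, and their markers were, like it, higher in tdT- cells in both comparisons. The summed level of the 7 microglia markers (P2ry12, Tmem119, Sall1, Siglech, Sparc, Olfml3 and Gpr34) was 42138 to 58543 in vehicle tdT+, 60892 to 70335 in BLZ945 tdT+ and 140106 to 307853 in tdT- libraries. None of the 7 was at 0 in any group. Library M1 of the tdT- group had both the highest marker sum and the highest Cx3cr1. Without it, the log2 fold change of Cx3cr1 was 0.66 against BLZ945 tdT+ cells (adjusted p = 2.4e-05) and 0.39 against vehicle cells (0.029). Between vehicle and BLZ945 tdT+ cells, the ranges of the marker sum did not overlap and lay higher in BLZ945 tdT+ cells. The mean of Cx3cr1 was 16345 ± 1827 in vehicle and 13629 ± 1957 in BLZ945 tdT+ cells. The libraries had been sorted as CD206+, and the paper defines microglia as CD206-. Mrc1, the gene of CD206, had means of 3318 in tdT- and 9710 in BLZ945 tdT+ cells, and the purity of the sort was not tested. The part of cells with microglia markers in the Cx3cr1 difference was not tested.

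**Figure D3:**
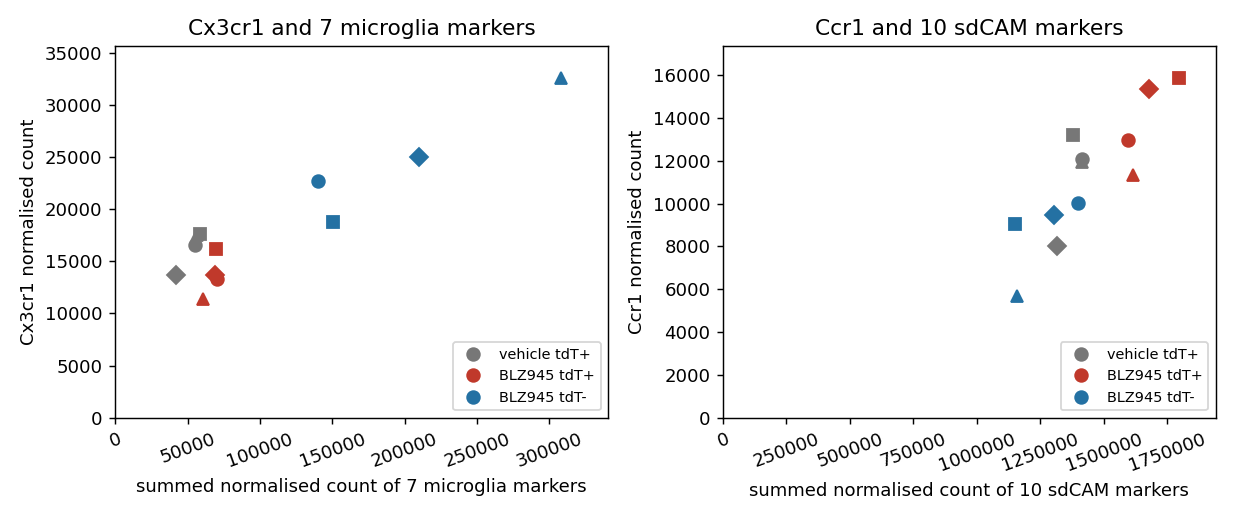
Left, Cx3cr1 (y axis, normalised count) against the summed normalised count of 7 microglia markers (x axis), and right, Ccr1 against that of 10 sdCAM markers, with a point for each of the 12 libraries, coloured by group and shaped by mouse label as in the plot of values by library. The 4 tdT- libraries lie at the highest microglia sums, from 140106 upwards, and at the highest Cx3cr1. Most of the sdCAM sum is Apoe.

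Cmklr1 (chr5:113750415-113788487, minus strand, GRCm39), the chemerin receptor, had 521, 713, 573 and 502 normalised counts in vehicle tdT+ libraries F1, F2, M1 and M2. In BLZ945 tdT+ libraries it had 724, 509, 589.6 and 647. In tdT- libraries it had 340.1, 406, 390.2 and 422, and all 4 lay below all 8 tdT+ libraries. Relative to BLZ945 tdT+ cells the log2 fold change was -0.54 ± 0.23 with an adjusted p of 0.0498, just inside the threshold, and the ratio within a mouse lay between 0.470 and 0.798. This call was lost with the mouse as a block (adjusted p = 0.26), in edgeR (0.16), without tdT- F2 (0.075) and without any of 9 other libraries. Against vehicle cells the log2 fold change was -0.45 ± 0.23 and did not pass (adjusted p = 0.12), although the groups did not overlap. Vehicle and BLZ945 tdT+ cells had means of 577 ± 95.3 and 617 ± 91, with an unshrunken interval of the log2 difference of -0.34 to 0.54.

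The sequence just upstream of the transcription start is shown for the 3 receptors whose groups did not overlap between tdT- and BLZ945 tdT+ cells, the 2 that fell (Ccr1 and Cmklr1) and the one that rose (Cx3cr1). They are 250-base windows ending at the base before the start, from RefSeq on GRCm38.p6, a different build from the GRCm39 coordinates above, at chr9:123968693-123968942, chr5:113643604-113643853 and chr9:120068297-120068546, all on the minus strand and written 5′ to 3′ along the gene. Capitals mark GAGGAA, a core of the sites bound by PU.1, the ETS factor of macrophages.
Ccr1: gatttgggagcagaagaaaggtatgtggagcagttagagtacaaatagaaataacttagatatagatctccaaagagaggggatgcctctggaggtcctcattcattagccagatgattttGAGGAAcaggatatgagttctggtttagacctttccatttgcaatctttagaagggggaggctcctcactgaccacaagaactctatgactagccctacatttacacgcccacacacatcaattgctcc
Cmklr1: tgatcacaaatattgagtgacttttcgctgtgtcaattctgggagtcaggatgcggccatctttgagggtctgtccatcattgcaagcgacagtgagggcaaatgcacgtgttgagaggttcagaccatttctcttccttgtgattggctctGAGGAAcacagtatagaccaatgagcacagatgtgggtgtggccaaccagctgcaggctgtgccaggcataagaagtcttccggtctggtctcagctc
Cx3cr1: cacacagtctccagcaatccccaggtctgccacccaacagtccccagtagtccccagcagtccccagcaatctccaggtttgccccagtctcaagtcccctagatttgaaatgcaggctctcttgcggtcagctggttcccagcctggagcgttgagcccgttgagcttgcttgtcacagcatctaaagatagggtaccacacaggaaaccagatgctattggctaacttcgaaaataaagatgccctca
The letters GAGGAA, searched on both strands, occurred once in Ccr1, beginning 129 bases upstream of the start, and once in Cmklr1, beginning 98 bases upstream, and not in the Cx3cr1 window. They occurred in 23.3% of all 32851 windows of this length. The windows of Ccr1, Cmklr1 and Cx3cr1 held no TTGCNNAA (C/EBP, in 9.6% of all windows), TGANTCA (AP-1, 6.7%), TGCTGA (a MAF half-site, 16.1%) or GGGCGG (GC box, 32.7%). Of the other receptors, Cxcr4 held 3 GC boxes and 1 of 3 Ccrl2 windows held 1, neither held any of the other motifs, and no motif match overlapped another. Windows were found for 5 of 6 receptors. The motifs were chosen after the values were seen, and a match is a description of letters and not of binding.

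Ccrl2 (chr9:110883554-110886587, minus strand, GRCm39), the atypical chemerin receptor, had 99.3, 296, 366 and 148 normalised counts in vehicle tdT+ libraries. It had 353, 308, 307 and 494 in BLZ945 tdT+ libraries. It had 485, 654, 887 and 370.1 in tdT- libraries F1, F2, M1 and M2, so that the lowest tdT- library exceeded the highest vehicle library by less than 4 normalised counts. The level rose against vehicle cells by 1.07 ± 0.52 on the log2 scale (adjusted p = 0.036), and Ccrl2 was the only receptor of the 6 called a DEG in any comparison. The call was lost in edgeR (adjusted p = 0.14), without tdT- F2 (0.084), without tdT- M1 (0.17, log2 fold change 0.65) and without vehicle F1, vehicle M2 or BLZ945 tdT+ F1. Against BLZ945 tdT+ cells, tdT- cells were higher in 3 of 4 mice, by 0.26 ± 0.35 (adjusted p = 0.5, unshrunken interval -0.18 to 1.60). The means of vehicle and BLZ945 tdT+ cells were 227 ± 125 and 365 ± 88.4 (adjusted p = 0.87).

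Cxcr4 (chr1:128515936-128520030, minus strand, GRCm39) had 299, 290.2, 246 and 264 normalised counts in vehicle tdT+ libraries and 194, 203, 178 and 207 in BLZ945 tdT+ libraries. The tdT- libraries F1, F2, M1 and M2 had 377, 415, 112 and 299. F1, F2 and M2 were above all BLZ945 tdT+ libraries and M1 was below all 11 other libraries. No comparison passed, with log2 fold changes of 0.26 ± 0.32 for tdT- against BLZ945 tdT+ cells (adjusted p = 0.53) and 0.05 ± 0.25 against vehicle cells (adjusted p = 0.96). The first interval, unshrunken, ran from -0.19 to 1.43. Without tdT- M1 the difference from BLZ945 tdT+ cells was 0.73 and passed (adjusted p = 0.031), so that this library decided the call. The BLZ945 tdT+ libraries lay below all vehicle libraries, at a mean of 195 ± 12.5 against 275 ± 24.2, yet this difference did not pass (log2 fold change -0.04 ± 0.13, adjusted p = 0.97, unshrunken interval -1.30 to 0.32).

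Ccr7 (chr11:99035022-99045903, minus strand, GRCm39) was read in few libraries. It had 74 and 13 counts in vehicle F1 and F2, 1003 and 472 counts in tdT- F1 and M2, and 0 counts in the other 8 libraries. All 4 BLZ945 tdT+ libraries were at 0, so that the mean of the tdT- group was at least 127-fold higher and that of the vehicle group at least 7.41-fold higher than the floor of 3 counts per library. Each bound rested largely on library F1 of its group, and without it the bounds were 51.2-fold for tdT- and 1.46-fold for vehicle cells. The groups nevertheless overlapped at 0 in both comparisons. DESeq2 called Ccr7 higher in tdT- than in BLZ945 tdT+ cells (adjusted p = 8.6e-09) and lower in BLZ945 tdT+ than in vehicle cells (adjusted p = 3.2e-06), while the shrunken log2 fold changes were 0.02 ± 0.29 and -0.0037 ± 0.13. With edgeR's quasi-likelihood test neither passed (adjusted p = 0.16 and 0.71), and DESeq2 gave no adjusted p without tdT- F1 or without tdT- M2. The second call was also lost without vehicle F2 (0.59), without tdT- F2 (0.58) and without tdT- M1 (0.57). The comparison of tdT- with vehicle cells did not pass (adjusted p = 0.69).

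Among cells known to carry Ccr7, dendritic cells, T cells and B cells were checked by their markers. The summed level of 9 dendritic cell markers was 5982 to 10102 in vehicle tdT+, 2827 to 6071 in BLZ945 tdT+ and 5549.5 to 9209 in tdT- libraries, and all 9 were detected in vehicle and tdT- cells, while Clec9a was at 0 in BLZ945 tdT+ cells. Most of this sum was Cd209a and Fscn1 (means of 4223 and 2846 in vehicle cells). Between tdT- and BLZ945 tdT+ cells 1 of the 7 tested was higher (Fscn1, edgeR adjusted p = 0.11) and 1 lower. The lower one was Zbtb46, a transcription factor of conventional dendritic cells, which fell by 1.43 ± 0.43 (adjusted p = 0.0014, edgeR 0.036) in 4 of 4 mice. Batf3 had 131, 237, 119 and 87 in BLZ945 tdT+ and 308, 383, 312 and 475 in tdT- libraries, without passing. Against vehicle cells, 2 of 8 were higher (Ccl17 and Batf3) and 1 lower (Zbtb46). None of these 3 calls held in edgeR (adjusted p = 0.23, 0.17 and 0.10) or without tdT- F2 (0.34, 0.081 and 0.053). In tdT- F1, which had the most Ccr7, the chemokine genes Ccl22 and Ccl17 of mature dendritic cells had 276 and 237 normalised counts. In tdT- M2, which had the next most, both were at 0, and Ccl17 was highest in tdT- F2 (668), where Ccr7 was at 0. These markers were singled out after their values were seen. All 6 T cell markers were at 0 in all tdT- libraries and summed to at most 111 in vehicle libraries. Most of the sum of the 5 B cell markers was Ighm, with means of 8768 in vehicle, 5552 in BLZ945 tdT+ and 10311 in tdT- cells. Ighm was higher in tdT- than in BLZ945 tdT+ cells (edgeR adjusted p = 0.0022) and did not pass against vehicle cells (edgeR 0.54). Ms4a1 had 204 in tdT- F1 and 0 in the other tdT- libraries, but also 165 in vehicle M1, where Ccr7 was at 0. The part of dendritic cells or B cells in the Ccr7 counts was not tested.

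**Figure D4:**
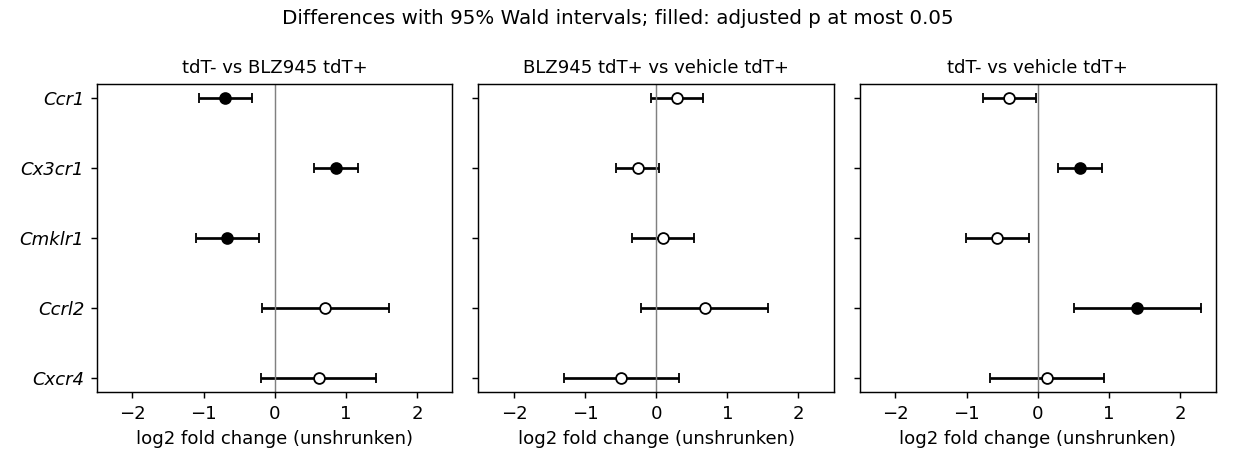
Unshrunken log2 fold changes (x axes) of 5 receptors in the 3 comparisons, with 95% Wald intervals from DESeq2 (n = 4 libraries per group) and points filled where the test was passed. Ccr7 is left out because its fitted value against a group at 0 is no bound. Ccr1, Cx3cr1 and Cmklr1 pass in the left panel, none of the 5 in the middle panel, and Cx3cr1 and Ccrl2 in the right panel.

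Counted over the 6 receptors, 4 passed between tdT- and BLZ945 tdT+ cells, against 6.54% of all genes tested. Of these, 2 were higher (Cx3cr1 and Ccr7, background 2.94%) and 2 lower (Ccr1 and Cmklr1, background 3.61%), and none was a DEG (background 2.31%). Ccr7 passed the filter on low counts only through the tdT- and vehicle libraries in which it was read. Its calls in these counts are therefore a description and say nothing about the 6 as a set. Without Ccr7, the calls between tdT- and BLZ945 tdT+ cells were those of Cx3cr1, Ccr1 and Cmklr1. In this comparison 3 of 6 receptors did not overlap between the groups, against 9.35% of all genes. Between BLZ945 tdT+ and vehicle tdT+ cells, 1 passed (background 0.961%), none higher (0.484%) and 1 lower (Ccr7, 0.477%). In that comparison no receptor was a DEG (background 0.169%) and 1 did not overlap (Cxcr4, background 6.72%). Between tdT- and vehicle tdT+ cells, 2 passed (background 6.81%), both higher (3.29%) and none lower (3.51%). There 1 was a DEG (Ccrl2, background 2.57%) and 3 did not overlap (Cx3cr1, Cmklr1 and Ccrl2, background 9.7%). The last comparison shares its vehicle libraries with the preceding and its tdT- libraries with the first. The median unshrunken log2 fold change of the 6 was 0.67, -0.08 and 0.37 in the order of the comparisons, beside 0.0036, 0.030 and 0.031 over all 13724 genes, and the first 2 values were the same with Ccr7 at its bound. With edgeR, 1 (Cx3cr1), 0 and 0 of the 6 passed in the 3 comparisons, against 377, 9 and 446 of all 13724 genes. At an unadjusted edgeR p under 0.05 the counts of the 6 were 4, 1 and 4. The share of all genes at that p was not computed, so these counts have no background.

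Ccr2, the CCL2 receptor of inflammatory monocytes, had 1172, 1981, 847 and 856 normalised counts in BLZ945 tdT+ and 6288, 12013, 5226 and 3076 in tdT- libraries, a rise of 2.32 ± 0.40 on the log2 scale (adjusted p = 2.2e-08). In vehicle tdT+ libraries Ccr2 had 2383, 3852, 3362 and 1476. Against these, tdT- cells were higher by 1.03 ± 0.42 (adjusted p = 0.019), with overlap. That call was lost in edgeR (0.15) and without tdT- F2 (0.18). Of 18 further chemokine receptors including Ccr2, 2 were at 0 in all libraries and 4 passed the filter on low counts. Cxcr3, the receptor of interferon-induced CXC chemokines, had 1469.6, 1372, 2193 and 1792 in BLZ945 tdT+ and 1139, 798, 718 and 1309 in tdT- libraries. It fell by 0.67 ± 0.24 against BLZ945 tdT+ cells (adjusted p = 0.017, lost with the mouse as a block at 0.08, without tdT- F2 at 0.058 and in edgeR at 0.069) and by 0.79 ± 0.24 against vehicle cells (adjusted p = 0.0037). Ccr3 did not pass in any comparison. Between the tdT+ groups none of the 4 passed, in DESeq2 or in edgeR. An unadjusted DESeq2 p under 0.05 was found for 1 of 4, against 1109 of all 13724 genes. That gene was Ccr2, lower in BLZ945 tdT+ cells, which passed in 7 of 18 alternatives, among them without tdT- F2 and with the label as a block.

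Of the receptors for other chemoattractants, those that passed were lower in tdT- cells. Of 14 listed, 13 passed the filter on low counts, and 12 had an adjusted p between tdT- and BLZ945 tdT+ cells, of which 5 were lower and none higher. With the mouse as a block, Ltb4r1, a leukotriene B4 receptor, was called higher in addition (adjusted p = 4.1e-06, against 0.2 without the block and 0.24 in edgeR). It had 0, 0, 34.9 and 0 in BLZ945 tdT+ and 125, 1299, 55.9 and 150.1 in tdT- libraries, higher in 4 of 4 mice and highest in tdT- F2, without which DESeq2 gave an adjusted p of 0.48. Fpr1, the formyl peptide receptor, had 1367, 2309, 3149 and 2417 in BLZ945 tdT+ and 743, 589, 876 and 971 in tdT- libraries and fell by 1.46 ± 0.25 (adjusted p = 4.0e-08). C5ar1, the receptor of complement C5a, fell by 0.74 ± 0.15 (adjusted p = 7.2e-06), and C3ar1, that of C3a, by 0.32 ± 0.08 (adjusted p = 0.0017). S1pr1, a sphingosine-1-phosphate receptor that guides cells out of tissue, fell by 0.72 ± 0.21 (adjusted p = 0.002), and S1pr2, the fifth gene, was chosen for naming after its value was seen (-0.68 ± 0.26, adjusted p = 0.021). Against vehicle cells, 5 of 13 were lower and none higher, among them Fpr1 (-1.98 ± 0.25, adjusted p = 2.3e-14), S1pr1 (-0.92 ± 0.20, adjusted p = 4.0e-05), Ptafr, the receptor of platelet-activating factor (-0.92 ± 0.21, adjusted p = 6.9e-05), and Gpr183, the oxysterol receptor (-0.40 ± 0.13, adjusted p = 0.02). None of the 13 passed between the tdT+ groups in DESeq2 or edgeR. At an unadjusted DESeq2 p under 0.05 there were 5, against 1109 of all 13724 genes. C5ar1 passed in that comparison, as higher, without tdT- F2. The list's median log2 fold change, unshrunken, was -0.33, -0.29 and -0.40 for tdT- against BLZ945 tdT+, BLZ945 tdT+ against vehicle and tdT- against vehicle cells, beside the medians near 0 of all genes given above. Of these calls, edgeR kept 4 of 5 in the first comparison and 3 of 5 in the last, and S1pr2 was lost in both without tdT- F2.

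Transcripts of several ligands of the receptors were read in the same libraries. Bulk samples cannot show whether the same cells carried ligand and receptor. The CCR1 ligands Ccl6 (5037 to 12063 normalised counts over the 12 libraries), Ccl7 (2596 to 7383) and Ccl9 (2422 to 6534) were high throughout, and none passed in any comparison. Ccl3, another CCR1 ligand, had 247, 189, 120.3 and 209 in vehicle tdT+ and 699.9, 387, 408 and 292 in tdT- libraries. The tdT- libraries all lay above the vehicle libraries, and Ccl3 rose by 0.99 ± 0.41 (adjusted p = 0.021), the only one of 9 ligands tested to pass in any comparison, and it was lost in edgeR (adjusted p = 0.14). Ccl5 ranged from 2.1 to 1505 and was highest in tdT- F1. Mif, which also binds CXCR4, ranged from 676 to 1598, and the CXCR4 ligand Cxcl12 from 0 to 288. Cx3cl1 reached 197 in BLZ945 tdT+ M1 and was at 0 in 3 libraries. The CCR7 ligand Ccl21a had no count in any library, Ccl19 at most 7.65 normalised counts, and Rarres2, the chemerin gene, at most 33.7.

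Downstream of the receptors, most genes did not pass. Of 20 genes of inhibitory G proteins and their effectors, 3 passed between tdT- and BLZ945 tdT+ cells, against the background of 6.54% above. Gng10, a G protein gamma subunit, had 3167, 3126, 2733 and 2418 in BLZ945 tdT+ and 7108, 9457, 13650.0 and 9379 in tdT- libraries and rose by 1.75 ± 0.19 (adjusted p = 3.1e-19), in 4 of 4 mice. Pik3cg, the catalytic subunit of the phosphoinositide 3-kinase that G protein beta-gamma subunits activate, had 6542, 7357, 7830.2 and 9736 in BLZ945 tdT+ and 3746, 3507, 4956 and 4467 in tdT- libraries and fell by 0.85 ± 0.19 (adjusted p = 7.4e-05). The gamma subunit gene Gng12 fell by 0.60 ± 0.21 (adjusted p = 0.012, edgeR 0.071). Against vehicle cells, Gng10 (1.48 ± 0.19, adjusted p = 5.6e-14) and Pik3r5, a regulatory subunit of the same kinase (0.85 ± 0.34, adjusted p = 0.021), were higher and Gng5 (-0.42 ± 0.11, adjusted p = 0.0025), Pik3cg (-0.52 ± 0.19, adjusted p = 0.026) and Gng12 were lower. Of these 5 calls edgeR kept 2, and those of Pik3cg and Gng12 were lost without tdT- F2. Between the tdT+ groups 1 gene passed, Gng5, which fell by 0.35 ± 0.12 (adjusted p = 0.042), a call lost in edgeR (0.32). Gng12 against vehicle cells, outside the naming rule and given after its value was seen, had -0.50 ± 0.20 (adjusted p = 0.048).

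Of 14 kinases, arrestins and RGS proteins that end receptor signalling, 13 passed the filter and 3 passed the test between tdT- and BLZ945 tdT+ cells. Rgs2, a GTPase activator for G proteins, had 5679, 7750.1, 5738 and 5424 in BLZ945 tdT+ and 10291, 11669, 14079 and 11387 in tdT- libraries and rose by 0.91 ± 0.15 (adjusted p = 7.7e-09). Grk3, a receptor kinase, had 34, 18.4, 14.4 and 18.9 in BLZ945 tdT+ and 89.7, 1048, 305 and 512 in tdT- libraries and rose by 4.04 ± 1.05 on the log2 scale (adjusted p = 1.8e-04, edgeR 0.064), with the highest level in tdT- F2, without which the log2 fold change was 3.06 (adjusted p = 0.01). Rgs18, an RGS protein of haematopoietic cells, had 3773, 3848, 3191 and 3928 in BLZ945 tdT+ and 2471.2, 1977.1, 1331.0 and 2339.8 in tdT- libraries and fell by 0.77 ± 0.22 (adjusted p = 0.0023). Outside these calls, Rgs10 passed as higher without tdT- F2 (adjusted p = 0.027, against 0.07 with it) and Rgs1 as higher with the mouse as a block (0.016, against 0.77 without it). Against vehicle cells, Rgs2 was higher (0.93 ± 0.15, adjusted p = 2.6e-09) and Rgs18 lower (-0.65 ± 0.22, adjusted p = 0.012, edgeR 0.058). None of the 13 passed between the tdT+ groups in DESeq2 or edgeR. There 1 had an unadjusted DESeq2 p under 0.05, against 1109 of all 13724 genes.

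**Figure D5:**
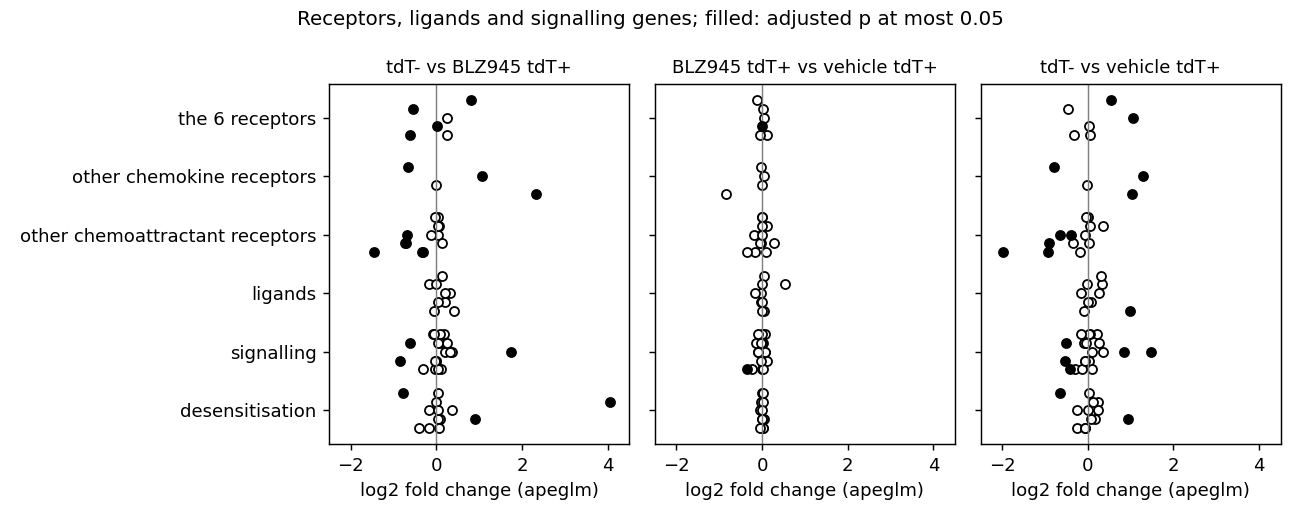
Apeglm-shrunken log2 fold changes (x axes) of the tested genes of each list (rows) in the 3 comparisons, with points filled where the DESeq2 test was passed and vertical scatter within a row without meaning. Filled points of other chemoattractant receptors lie only below 0, and the filled point of the 6 receptors near 0 in the left and middle panels is Ccr7.

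The genes whose levels were most like each receptor over the 12 libraries were found among 9280 genes whose mean reached 100 normalised counts, by Pearson's r of log2(normalised count + 1). Group differences and library composition are shared by all genes and add to these values. Ccr1 was most like Rhbdf2 (r = 0.924), Adh5 (0.923) and Slc25a36 (0.899). Cx3cr1 was most like Cyb561a3 (0.943), Eng (0.942) and Cst3 (0.934), the last a cystatin with a mean of 230006 normalised counts that is abundant in microglia. Cmklr1 was most like Etv5 (0.901), Trim30c (0.897) and Tlr4 (0.895). Ccrl2 was most like Bclaf3 (0.911), Nup43 (0.910) and Cd180 (0.9097). Cxcr4 was most like Rmnd5b (0.932), Lasp1 (0.914) and Ift22 (0.885). Ccr7, with 8 libraries at 0, was most like Snhg6 (0.878), Arf4 (0.877) and Uba2 (0.876). Among the receptors themselves, r lay between -0.712 (Cx3cr1 and Cmklr1) and 0.651 (Ccr1 and Cmklr1).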

How the data were processed

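RNA of sorted sdCAMs was amplified by a SMART-Seq protocol. For each gene the authors deposited raw read counts. Per the file headers and the submitters' processing notes, the authors aligned with STAR 2.7.11a and counted with featureCounts 2.0.6 over exons of a filtered GENCODE M33 annotation (GRCm39), without strand or multi-mapping reads. Reads of amplified cDNA are not independent molecules, so detection floors cover counting error only. All 12 columns were assigned to a library by library name; the column with the M2 vehicle library number is headed M1, like another, and was read as M2.

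A gene was removed where 75% or more of the libraries had under 10 counts for it, and 13724 genes were tested in DESeq2 1.42.0 (R 4.3.3; two-sided Wald test, 12 libraries in 1 fit, group only), with apeglm 1.24.0 shrinkage. edgeR 4.0.16 was the main alternative. Both were tested on counts simulated for tdT- against BLZ945 tdT+ cells, as negative binomial with dispersions fitted by edgeR. There DESeq2 recovered more changed genes but also called more unchanged ones than edgeR. The simulation held no pairing and no library of differing composition, so it cannot decide which test is right here. Values of edgeR are given where they change a call. Other alternatives were TMM factors, no filter, the 8 libraries of a comparison, the mouse label as block or its letter as covariate, unshrunken values and leaving out each library.

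BLZ945 libraries are paired by mouse. Deviations from group means of same-mouse libraries correlated across genes at r = -0.0046 to 0.035 over all tested genes and at 0.11 to 0.26 over genes with a mean of at least 1000. Vehicle libraries of the same label, which are other animals, gave overlapping values over the latter genes. These were 0.038 to 0.175 with BLZ945 tdT+ and 0.026 to 0.184 with tdT- libraries, so the correlations do not by themselves show a mouse effect. The receptors, lists, alternatives and motifs were chosen with earlier results of these data known. Named were all receptors, Ccr2, detected ligands, up to 4 genes per list and comparison with the smallest adjusted p at or under 0.05, and the 3 genes most like each receptor, leaving out predicted genes. The tdTomato entry had 0 counts in all libraries, and thus could not check the label. Of the listed genes, 1 is not reported here.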

Additional observations from a re-analysis of the deposited data

Results flagged for a closer look

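Over the receptors and the named genes of their pathway, 71 groups of 4 libraries were examined for a library far from the other 3, and chance marks about 1 in 20. A library stood apart in 3, none of them of the 6 receptors. In tdT- M2, the gap of Pik3r5 to the nearest library took 0.892 of the group's range (882, 903, 915 and 1187 normalised counts in F1, F2, M1 and M2). In tdT- M2 the same share was 0.855 for S1pr1 (1999.7, 1955, 1781 and 3289). In BLZ945 tdT+ F2 it was 0.865 for Rgs2 (5679, 7750.1, 5738 and 5424). The difference in effect between mice labelled F and mice labelled M was tested for the 6 receptors in each comparison with an edgeR interaction term. None of the 18 tests passed, and the smallest unadjusted p was 0.032 (Cx3cr1, tdT- against BLZ945 tdT+ cells, adjusted p = 0.80, with 2 mice per label and group). No gene passed this test in any comparison, and 836, 621 and 825 genes had an unadjusted p under 0.05.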

How the results depend on the processing

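The number of receptors passing the test fell from 4 to 1 between tdT- and BLZ945 tdT+ cells in edgeR, and to 2 with the 8 libraries of the groups alone and with the mouse as a block. Leaving out each library gave between 2 and 4. Of all genes, 875 of 13369 passed in the main fit and 377 of 13724 in edgeR. With the 8 libraries 760 of 13138 passed, with the block 998 of 12748, and with a library left out 708 to 1047. Between BLZ945 tdT+ and vehicle tdT+ cells the number of receptors fell from 1 to 0 in edgeR, with the 8 libraries and with the label as a block, and lay between 0 and 1 with each library left out. Of all genes, 131 of 13633 passed there in the main fit and 9 of 13724 in edgeR. With the 8 libraries 325 of 13363 passed, with the block 367 of 12916, and with a library left out 129 to 226. Ccr7 did not pass the filter on low counts in these 8-library fits, which removes its call by construction. Between tdT- and vehicle cells the number of receptors fell from 2 to 0 in edgeR and to 1 with the 8 libraries, and lay between 1 and 2 with each library left out. Of all genes, 928 of 13633 passed there in the main fit and 446 of 13724 in edgeR. With the 8 libraries 759 of 13356 passed, and with a library left out 806 to 1125. DEGs among the receptors went from 1 to 0 in this comparison in edgeR and with the 8 libraries, with 0 to 1 over the libraries left out. Of all genes, 350 were DEGs there in the main fit, 273 in edgeR, 326 with the 8 libraries and 312 to 382 with a library left out. On unshrunken fold changes, DEGs among the receptors went from 0 to 1 (Ccr7) in each of the other 2 comparisons. DEGs of all genes went from 309 to 487 in the first and from 23 to 67 between the tdT+ groups. Cx3cr1 between tdT- and BLZ945 tdT+ cells passed in all 18 alternatives with a test, with log2 fold changes of 0.66 to 0.93, and Ccr1 in 17 of 18. Cxcr4 against vehicle cells, never past the threshold, turned to -0.0038 with the label as a block and to -0.024 without tdT- F2, and its leave-one-out values ran from -0.024 to 0.25 (without tdT- M1). Cmklr1 against vehicle cells passed without a filter on low counts (-0.50, adjusted p = 0.019). In all, 300 of 332 alternative values for the receptors and 482 of 532 for the other named genes kept direction and side of the threshold. Apart from the calls named here and beside the results, the mouse block changed no call of the 6 receptors, and among the listed genes it added Ltb4r1 and Rgs1 and removed Cxcr3 between tdT- and BLZ945 tdT+ cells. Vehicle and BLZ945 libraries with the same label are different animals, so a block on them is no pairing. The cause of these changes was not tested. In 8 libraries Ccr7 had 0 counts, below the floor of 3 counts, which does not show that it was absent there.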
